A study of Mus musculus with 8 samples.

Results

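The 9 genes described here code for a cytokine signalling route and its feedback: the cytokine Lif, the receptor chains Lifr and Osmr, the transcription factor Stat3, the feedback inhibitors Socs1, Socs2, Socs3 and Cish, and the complement component C3. They were chosen by name, with earlier results of these data known. Each of the 9 had a row of its own among the 21874 gene rows of the linear RNA table. The tissue was renal proximal tubule, isolated from the cortex of male C57BL/6 mice in which acute kidney injury had been induced with cisplatin, a platinum drug toxic to tubule cells, given into the peritoneum at 30 mg/kg. There were 2 libraries at each of 0, 24, 48 and 72 h, 8 in all, called here library a and library b of each time. The labels do not say what the 0 h animals were given, how old the animals were or whether animals were pooled. The design text calls the duplicates biological, but separate animals are not stated, and the p-values below reflect a spread between samples that may be technical.

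LIF, oncostatin M, interleukin 6 and interleukin 11 signal through receptors that share the gp130 chain. LIFR and OSMR are ligand-binding partners of gp130, and the assembled receptor activates JAK kinases, which phosphorylate STAT3. STAT3 then enters the nucleus and switches on target genes, among them Socs3, whose product binds gp130 and JAK kinases and shuts the signal off. SOCS1 inhibits JAK kinases directly, while SOCS2 and CISH are best known as feedback inhibitors of growth hormone and other STAT5 signals. C3 is the central protein of the complement cascade, made chiefly by the liver and also, under inflammation, by tubule cells.

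Expression was deposited as FPKM, fragments scaled to gene length and to the mapped fragments of the library, so levels can be set side by side between genes but the sequencing depth of the linear RNA libraries is unknown. Changes are differences of log2(FPKM + 1), called log2 changes below, with their standard error (SE), which understate the change of genes near or under 1 FPKM. They were tested with limma on the 10757 rows that reached 1 FPKM in at least 2 libraries. A change was called where the adjusted p fell under 0.05. All 9 genes passed that filter, but Socs1, Socs3 and Lif passed it through the cisplatin libraries alone, since both 0 h libraries lay under 1 FPKM. Between 15629 and 17704 rows were above 0 per library, and summed FPKM ran from 314173 to 452114. In bulk RNA a change in the share of a cell type and a change of RNA per cell cannot be told apart.

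At 24 h, 5 of the 9 genes were called higher than at 0 h and 1 lower; over all tested rows 25.8% were called higher and 40.0% lower. At 48 h the count was 7 higher and 1 lower, against 28.5% higher and 42.1% lower over all rows. At 72 h it was 8 higher and 1 lower, against 37.6% and 32.4%. The median log2 change of the 9 genes was 0.50 after 24 h, 0.73 after 48 h and 1.30 after 72 h, beside -0.12, -0.13 and 0.07 over all tested rows. The 3 comparisons use the same 0 h libraries and are not independent. Socs1, Socs3 and Lif are among the higher calls at each time, and they passed the filter through cisplatin libraries alone, which fixed their direction. The 9 genes were also chosen with earlier results of these data known, so their contrast with all rows is no independent evidence. Higher calls made up 39.2%, 40.4% and 53.7% of all calls at 24, 48 and 72 h. With every library scaled to the same total without mitochondrially encoded rows, these shares became 54.4%, 64.0% and 68.8%, and the median of all rows moved to 0.07, 0.23 and 0.30. Scaled to the same median, they became 48.8%, 49.6% and 49.2%.

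**Figure D1:**
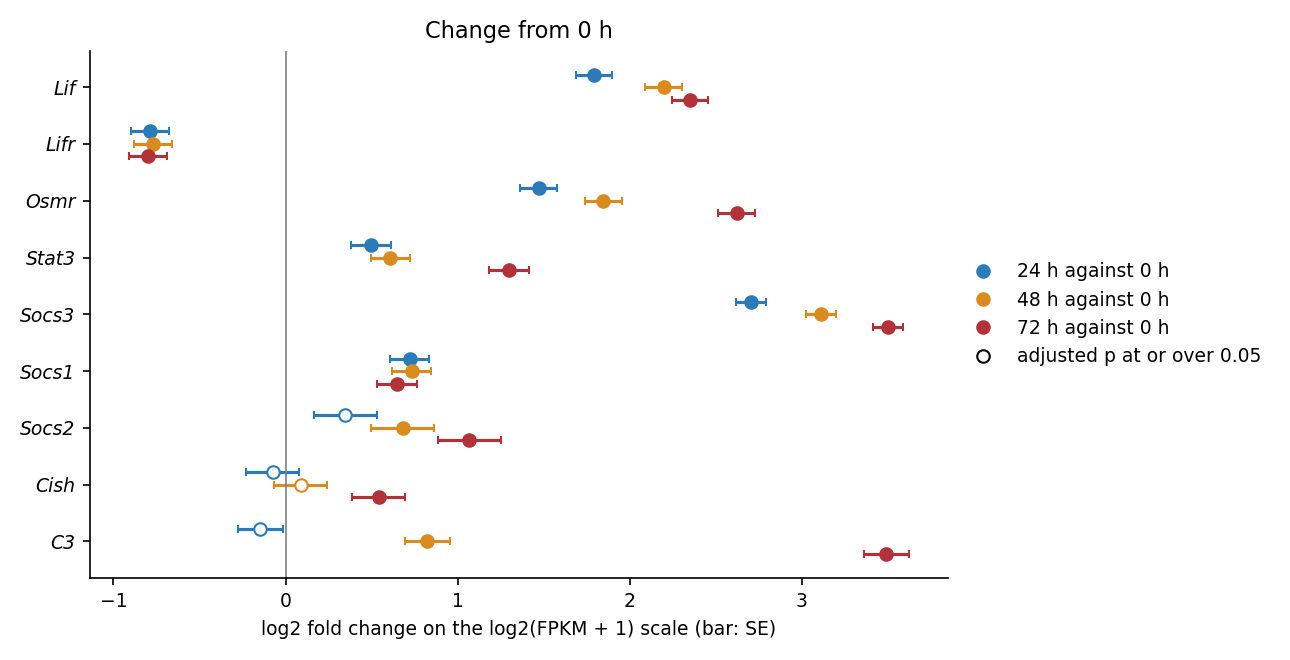
Log2 change from 0 h on the log2(FPKM + 1) scale (horizontal axis) for each of the 9 genes, at 24 h (blue), 48 h (orange) and 72 h (red), with bars for the SE from limma and open circles where the adjusted p was 0.05 or more. Socs3 lies far to the right at all times, C3 crosses from -0.15 after 24 h to 3.49 after 72 h, and Lifr alone lies to the left of 0 at all 3 times.

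Lif, the ligand of the set, was near 0 at 0 h, at 0.0380 and 0.0576 FPKM in libraries a and b. It stood at 2.66 and 2.61 FPKM at 24 h, 3.54 and 4.07 after 48 h, and 4.04 and 4.68 after 72 h. Every cisplatin library lay above both 0 h libraries, and the 48 h and 72 h libraries overlapped. Lif rose by a log2 change of 1.79 (SE 0.105, 2 libraries against 2) at 24 h, with an adjusted p of 1.5e-06 in limma. Its log2 changes were 2.20 after 48 h and 2.35 after 72 h, so 76.3% of the 72 h change was present at 24 h. With a pseudocount of 0.1 FPKM in place of 1 the 3 values became 4.21, 4.72 and 4.91.

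Il6, Il11 and Osm, 3 other ligands of the gp130 family, had also risen by 72 h. Of a list of 10 ligand genes of the interleukin 6 family, Lif included, 8 had a row and 5 were tested. All 5 lay under 1 FPKM in both 0 h libraries and were tested only through cisplatin libraries, which fixes the direction of their count. Without the filter 7 were tested, with 4 called higher and 1 lower at 24 h, 4 higher at 48 h and 5 higher at 72 h. Il6, the founding cytokine of the family, went from 0 and 0.0216 FPKM at 0 h to 1.13 and 0.908 after 24 h and 1.96 and 1.72 after 72 h, a log2 change of 0.99 after 24 h and 1.49 after 72 h. Il11 reached 1.92 and 1.93 FPKM at 72 h from 0.0268 and 0 at 0 h, with log2 changes of 0.53, 0.45 and 1.53 at the 3 times. Osm, oncostatin M, the ligand of Osmr, was not called at 24 h, at 0.26, and lay between 1.02 and 1.21 FPKM at 72 h, a log2 change of 1.04. At 48 h the call of Osm, at 0.33, had an adjusted p of 0.0459 in limma, and it was lost without either 0 h library or without 48 h library a. Both Il11 and Osm lost their 48 h calls under quantile normalisation.

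The receptor chains moved in opposite directions. Lifr was the most abundant of the 9 genes at 0 h, at 20.3 and 20.2 FPKM, and stood at 11.8 and 10.9 after 24 h, 10.4 and 12.6 after 48 h, and 12.2 and 10.3 after 72 h. All 6 cisplatin libraries lay below both 0 h libraries, and the 3 later times overlapped one another. Lifr fell by 0.79 on the log2 scale at 24 h (SE 0.109, adjusted p 0.00022 in limma), by 0.77 after 48 h and by 0.80 after 72 h. With libraries scaled to the same total, the 48 h and 72 h changes were -0.36 and -0.53. No call between 2 of the later times was made for Lifr.

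Osmr went the other way, from 2.88 and 3.72 FPKM at 0 h to 11.2 and 10.6 after 24 h, 15.1 and 13.7 after 48 h, and 24.1 and 26.6 after 72 h. The 4 times did not overlap. Its log2 changes from 0 h were 1.47 (SE 0.109, adjusted p 5.3e-06 in limma), 1.85 and 2.62. Within each library the ratio of Osmr to Lifr in FPKM was 0.142 and 0.184 at 0 h, 0.948 and 0.968 after 24 h, 1.45 and 1.09 after 48 h, and 1.98 and 2.58 after 72 h. Lifr RNA thus had the higher FPKM in every 0 h and 24 h library and Osmr RNA in every 48 h and 72 h library. At 24 h the gap was small, and the FPKM of both genes overlapped between libraries. The order within a library does not depend on how the libraries are scaled. It does rest on the gene lengths behind FPKM, listed as 10090 bases for Lifr and 6681 for Osmr.

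**Figure D2:**
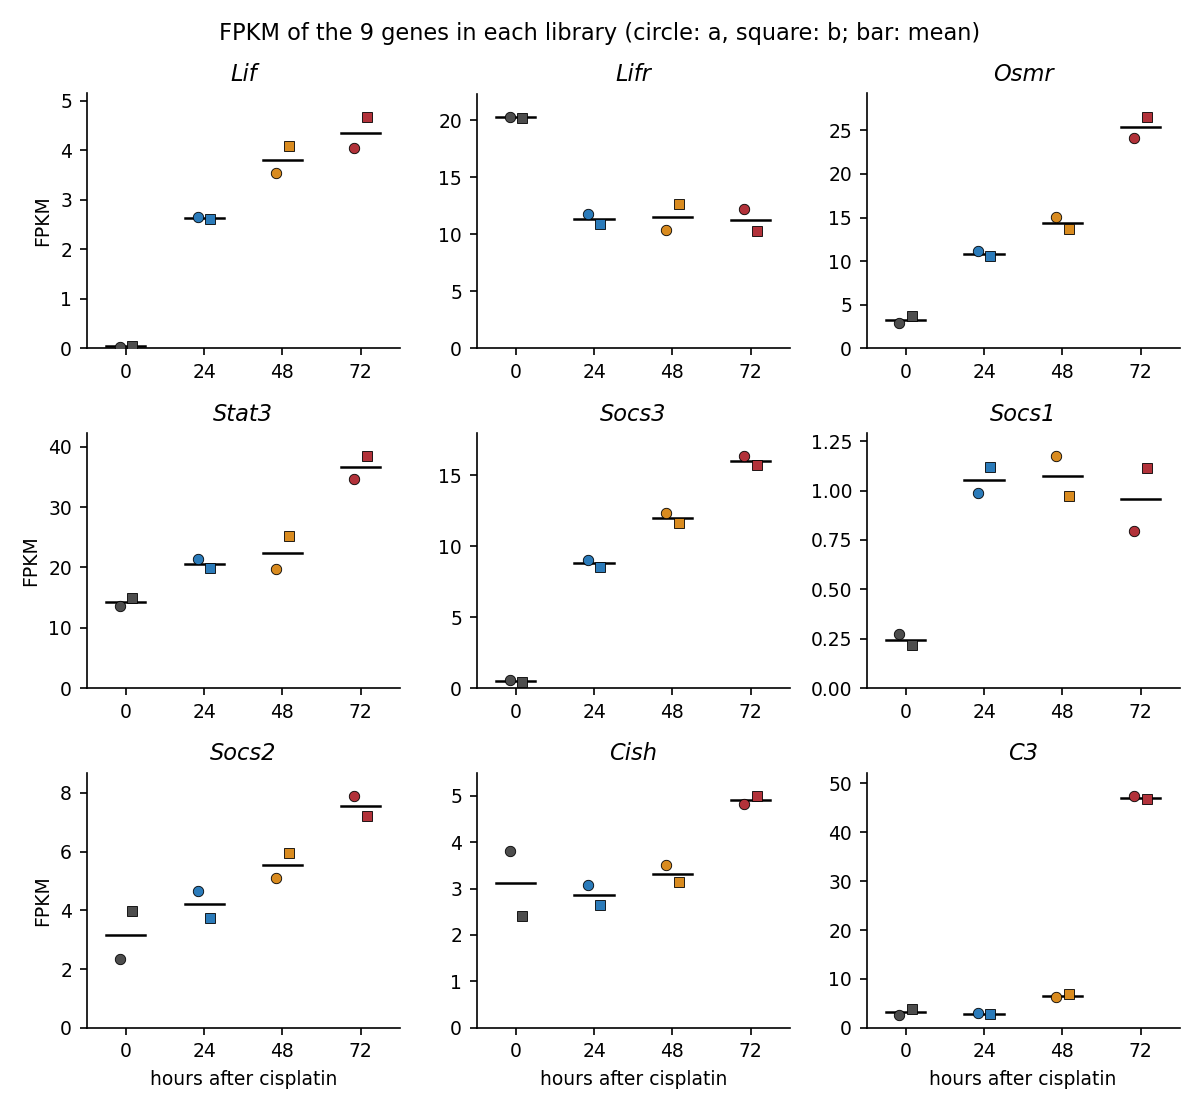
FPKM of each of the 9 genes (vertical axis, from 0, 1 panel per gene) against hours after cisplatin, with a circle for library a, a square for library b and a bar at their mean. The 2 libraries of a time lie close together for Socs3, Lif and C3, and are farther apart at 0 h for Socs2, at 2.33 and 3.98 FPKM, and Cish, at 3.82 and 2.42.

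Il6st, the gene of gp130 itself, had no row of its own: it lay within a row named for its neighbour Pde4d, whose value cannot be split between them and ran from 41.4 to 59.0 FPKM. Of 7 receptor genes of the family, 5 had a row and 4 were tested; 1 was called higher and 1 lower at 24 h, and 2 higher and 1 lower at 48 and at 72 h. Besides Osmr, the gene called higher was Il6ra, the interleukin 6 receptor, at 0.761 and 0.538 FPKM at 0 h and 2.15 and 3.15 after 72 h. Il6ra passed the filter through cisplatin libraries alone. Its log2 change was 0.35 after 24 h, where it was not called (adjusted p 0.067 in limma), 0.65 after 48 h and 1.14 after 72 h.

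Stat3 stood at 13.6 and 14.9 FPKM at 0 h, 21.3 and 19.8 after 24 h, 19.7 and 25.2 after 48 h, and 34.7 and 38.4 after 72 h. The 24 h and 48 h libraries overlapped, and both times were clear of 0 h and of 72 h. Stat3 rose by a log2 change of 0.50 after 24 h (SE 0.115, adjusted p 0.0043 in limma), 0.61 after 48 h and 1.30 after 72 h. Of its 72 h change 38.4% was present after 24 h, against 77.3% for Socs3. With libraries scaled to the same total, the 48 h change was 1.02.

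The Stat3 row (chromosome 11, 100885098 to 100939724, minus strand, mm10) lies inside the spans of rows named Stat5a and Igfbp4, both listed at 0 in all 8 libraries. To which row fragments shared by these spans were counted was not tested. Stat5b, the neighbouring factor used by growth hormone, kept a row of its own and fell, by 0.94 on the log2 scale at 24 h, 1.05 after 48 h and 0.70 after 72 h. The ratio of Stat3 to Stat5b in FPKM was 1.90 and 2.23 at 0 h, 6.50 and 6.58 after 24 h, 8.31 and 7.53 after 48 h, and 9.21 and 9.66 after 72 h.

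The kinases and STAT genes, taken as a list that holds Stat3 itself, showed no common direction. Stat3 was counted among the higher calls of every time and in the medians below. Of 11 JAK and STAT genes 8 were tested, with 3 higher and 4 lower at 24 h, 3 higher and 2 lower at 48 h, and 5 higher and 1 lower at 72 h. Their medians were -0.23, -0.06 and 0.35, and the 48 h median turned to 0.08, 0.19 or 0.35 under the 3 other scalings. Jak1, the kinase most used by gp130 receptors, fell by 0.55 after 24 h and rose by 0.31 after 72 h. Jak3, in a row that also spans Insl3, had log2 changes of 0.52, 0.59 and 1.25.

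Socs3, the STAT3-induced inhibitor of gp130 signals, was called higher at every time. It went from 0.580 and 0.429 FPKM at 0 h to 9.03 and 8.56 after 24 h, 12.3 and 11.6 after 48 h, and 16.3 and 15.7 after 72 h. The 4 times did not overlap and each was higher than the one before. Its log2 changes from 0 h were 2.70 (SE 0.0878, adjusted p 9.3e-08 in limma), 3.11 and 3.50, the 35th, 32nd and 44th largest rises of the 10757 tested rows at the 3 times. On this scale they were the largest of the 9 genes, but C3 was within 1 SE of Socs3 after 72 h and above it under quantile normalisation or with libraries scaled to the same total. With a pseudocount of 0.1 FPKM the changes of Socs3 were 3.89, 4.33 and 4.75, below those of Lif.

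Socs1, the JAK inhibitor best known from interferon signals, rose by 24 h and was not called between later times. It was at 0.273 and 0.216 FPKM at 0 h, 0.986 and 1.12 after 24 h, 1.17 and 0.971 after 48 h, and 0.797 and 1.11 after 72 h. All cisplatin libraries lay above 0 h and the 3 later times overlapped. The log2 changes were 0.72 after 24 h (SE 0.114, adjusted p 0.00047 in limma), 0.73 and 0.65, and with a pseudocount of 0.1 FPKM 1.74, 1.77 and 1.60. Under quantile normalisation the 72 h value was 0.21 and was not called (adjusted p 0.147 in limma).

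The STAT5-linked inhibitors Socs2 and Cish were not called at 24 h. Socs2 stood at 2.33 and 3.98 FPKM at 0 h, 4.67 and 3.74 after 24 h, 5.12 and 5.97 after 48 h, and 7.89 and 7.21 after 72 h. The 24 h libraries overlapped those of 0 h, and the log2 change there was 0.35 (SE 0.183, adjusted p 0.129 in limma). Without 0 h library b it was 0.64 and was called, as it was at 0.47, 0.42 and 0.52 under the 3 other scalings. Socs2 rose by 0.68 after 48 h and by 1.07 after 72 h. The 48 h call was lost without 48 h library b, at 0.59 (adjusted p 0.0636 in limma), and the value was 0.39 without 0 h library a and 1.03 with libraries scaled to the same total.

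Cish stood at 3.82 and 2.42 FPKM at 0 h, 3.09 and 2.64 after 24 h, 3.51 and 3.13 after 48 h, and 4.82 and 4.99 after 72 h. Both 72 h libraries were above all others, and the 24 h and 48 h libraries lay inside the range of 0 h. The log2 changes were -0.07 (SE 0.153, adjusted p 0.689 in limma), 0.09 and 0.54, of which only the last was called. That call was lost under quantile normalisation, at 0.36, without 0 h library b, at 0.29, and without 72 h library b, at 0.52. At 48 h the value was called at 0.42 with libraries scaled to the same total and was -0.16 without 0 h library b.

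The SOCS family as a whole has 8 genes, all of which had a row and were tested. At 24 h 4 were called higher and 1 lower, at 48 h 5 and 2, and at 72 h 6 and 0, with medians of 0.38, 0.59 and 0.65. Over all tested rows the shares were 25.8% and 40.0%, 28.5% and 42.1%, and 37.6% and 32.4%, with medians of -0.12, -0.13 and 0.07. Besides the 4 genes above, Socs4 rose by 0.72, 1.02 and 0.64 and Socs5 by 0.41, 0.49 and 0.86. The call of Socs5 after 24 h was lost without 0 h library a and without 24 h library b. Lower calls were those of Socs7, at -0.33 and -0.24 at 24 and 48 h, and of Socs6, at -0.42 after 48 h, and these calls were lost with libraries scaled to the same median or the same total.

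Socs3 also changed its place within the family. Summed FPKM of the 8 SOCS genes was 23.8 and 24.3 at 0 h, 37.9 and 37.2 after 24 h, 45.3 and 43.3 after 48 h, and 52.6 and 51.4 after 72 h. Of these sums Socs3 made up 2.44% and 1.76% at 0 h, 23.9% and 23.0% after 24 h, 27.2% and 26.9% after 48 h, and 31.0% and 30.5% after 72 h. Set against Stat3 in the same library, Socs3 stood at a ratio of 0.0426 and 0.0287 at 0 h, 0.424 and 0.432 after 24 h, 0.627 and 0.461 after 48 h, and 0.470 and 0.409 after 72 h. The ratio was higher in every cisplatin library than at 0 h, and the 72 h libraries overlapped those of 24 h and of 48 h.

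**Figure D3:**
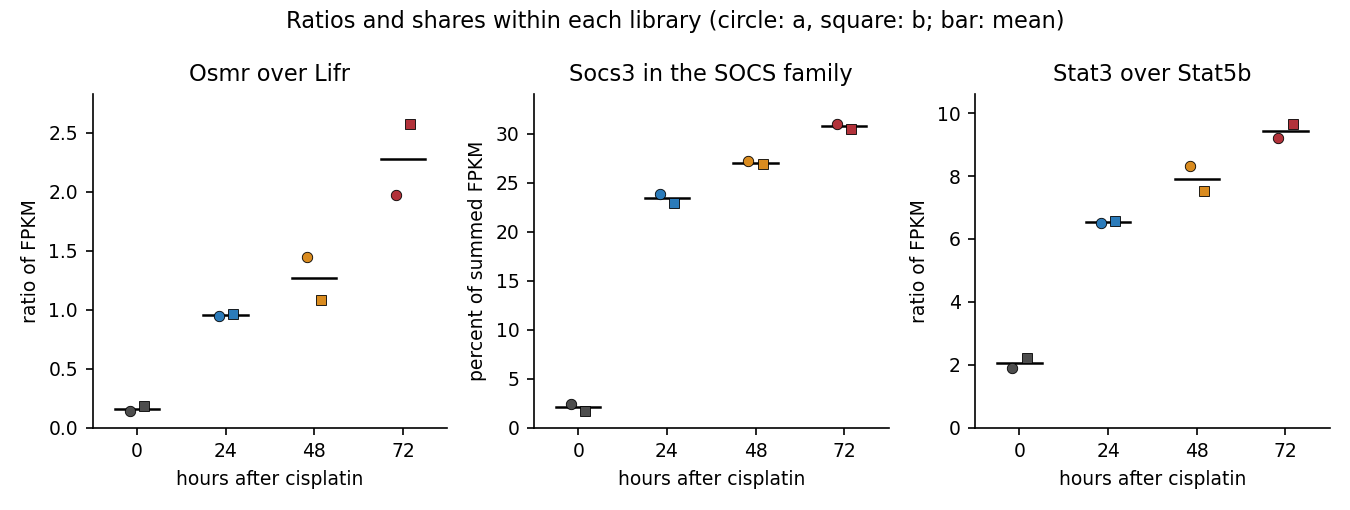
Ratios of FPKM within each library (vertical axes) against hours after cisplatin, with a circle for library a, a square for library b and a bar at their mean: Osmr over Lifr (left), Socs3 as a percent of the summed FPKM of the 8 SOCS genes (middle) and Stat3 over Stat5b (right). Osmr over Lifr is under 1 in every 0 h and 24 h library and above it later, the share of Socs3 goes from 2.44% and 1.76% to 31.0% and 30.5%, and Stat3 over Stat5b goes from 1.90 and 2.23 to 9.21 and 9.66.

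The promoter windows of the feedback genes are shown because STAT dimers bind the 9-base palindrome TTCNNNGAA, where N is any base. Windows of 300 bases, 250 before to 50 after a transcript start, were taken from RefSeq (GRCm38.p6) for 8 of the 9 genes. The motif, which reads alike on both strands, was found in 2 of the 8, Socs3 and Cish, and in 9.55% of the 27025 genes of the table, or 8.3% of its 32851 windows. Below, the 250 bases before and the first 20 bases from the start are printed 5′ to 3′ on the gene's strand, with the motif in capitals. The Socs3 stretch is chr11:117969347-117969616 on the minus strand, and its start lies inside the RefSeq span of the gene and not at its end. The windows of Lifr and Osmr likewise lie inside the spans of their genes, so the motif was not searched for at the outer starts of those spans. The Cish stretch is chr9:107296409-107296678 on the plus strand.
Socs3: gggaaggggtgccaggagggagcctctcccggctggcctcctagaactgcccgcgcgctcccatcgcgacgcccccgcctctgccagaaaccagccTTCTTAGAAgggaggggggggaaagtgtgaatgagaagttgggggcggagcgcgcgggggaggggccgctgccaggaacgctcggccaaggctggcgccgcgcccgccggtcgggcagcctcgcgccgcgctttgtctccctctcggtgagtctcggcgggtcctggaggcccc
Cish: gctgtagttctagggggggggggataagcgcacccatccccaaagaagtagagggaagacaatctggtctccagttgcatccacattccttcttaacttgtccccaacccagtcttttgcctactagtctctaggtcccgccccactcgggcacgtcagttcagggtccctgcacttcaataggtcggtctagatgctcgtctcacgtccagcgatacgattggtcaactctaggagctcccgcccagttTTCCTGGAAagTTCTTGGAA

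In Socs3 the single match, TTCTTAGAA, begins at base -154 from the start, and in Cish the matches TTCCTGGAA and TTCTTGGAA begin at bases 1 and 12 counted from the start. The narrower form TTCCNGGAA, which is contained in the first motif, was found in Cish alone among the 8 genes and in 1.35% of all genes. The genes that hold the motif were thus one called at all 3 times and one called at 72 h alone. Neither promoter activity nor binding was measured.

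C3, the complement component, rose late. It stood at 2.70 and 3.93 FPKM at 0 h, 2.99 and 2.74 after 24 h, 6.22 and 6.92 after 48 h, and 47.4 and 46.7 after 72 h. The 24 h libraries lay inside the range of 0 h, and the later times were each clear of the one before. The log2 change was -0.15 after 24 h (SE 0.130, adjusted p 0.350 in limma), 0.82 after 48 h and 3.49 after 72 h, so that 23.6% of the 72 h change was present at 48 h. Without 0 h library a the 24 h value was called, at -0.35 (adjusted p 0.0237 in limma), and without 0 h library b it was 0.06. From 48 h to 72 h C3 rose by 2.67, the 8th largest rise of all tested rows between those times.

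Other complement genes were called in both directions. Of 31 genes, C3 not among them, 25 had a row and 18 were tested, with 7 higher and 6 lower at 24 h, 9 and 4 after 48 h, and 13 and 3 after 72 h. Over all tested rows the shares were 25.8% and 40.0%, 28.5% and 42.1%, and 37.6% and 32.4%. The medians of the 18 were -0.01, 0.26 and 0.81, and the 24 h median was 0.09 to 0.12 under the 3 other scalings. Of the 18, 4 lay under 1 FPKM in both 0 h libraries, C5ar1 among them, and passed the filter only through cisplatin libraries. Clu, clusterin, an inhibitor of the terminal complex, was likewise not called at 24 h and rose later, by 1.36 after 48 h and 2.76 after 72 h. It stood at 82.8 and 74.7 FPKM at 0 h, 73.6 and 73.0 after 24 h, 211 and 197 after 48 h, and 532 and 543 after 72 h. C5ar1, the receptor for the C5a fragment, rose by 0.87, 1.31 and 2.20 at the 3 times. The genes called lower at 72 h were C4b, C8a and C2, the last in a row that also spans Cfb, with log2 changes of -1.36, -1.75 and -1.38.

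Genes named in the field as STAT3 targets were counted as a list of 35, without the 9 genes above, of which 30 had a row and 27 were tested. At 24 h 16 were higher and 5 lower, at 48 h 17 and 4, and at 72 h 24 and 3. The shares over all tested rows were 25.8% higher and 40.0% lower, 28.5% and 42.1%, and 37.6% and 32.4%. The medians of the 27 were 0.97, 1.23 and 2.07, beside the -0.12, -0.13 and 0.07 of all rows. Of the 27, 10 lay under 1 FPKM in both 0 h libraries and passed the filter only through cisplatin libraries. Without the filter 29 were tested and the medians were 0.84, 1.07 and 1.80. Many of these genes also answer to other factors, and the list was drawn up with earlier results of these data known, so its direction is no independent evidence.

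Timp1, a metalloproteinase inhibitor, went from 0.422 and 0.312 FPKM at 0 h to 43.3 and 43.9 after 72 h, with log2 changes of 2.87, 3.30 and 5.03. Cebpb, a transcription factor of the acute phase, rose by 2.02, 1.85 and 2.96. Fos, an immediate-early factor, was highest at 24 h, at 18.1 and 17.9 FPKM against 12.4 and 13.1 after 72 h. Mcl1, a survival factor, was also highest at 24 h, at 84.7 and 83.6 FPKM from 27.7 and 27.9 at 0 h. Lrg1, an acute-phase glycoprotein, rose by 0.84, 1.23 and 3.63, with most of the rise after 48 h, as for C3. The targets called lower at 72 h were Bcl6, Vegfa and Birc5, the last in a row that also spans Syngr2 and Afmid.

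**Figure D4:**
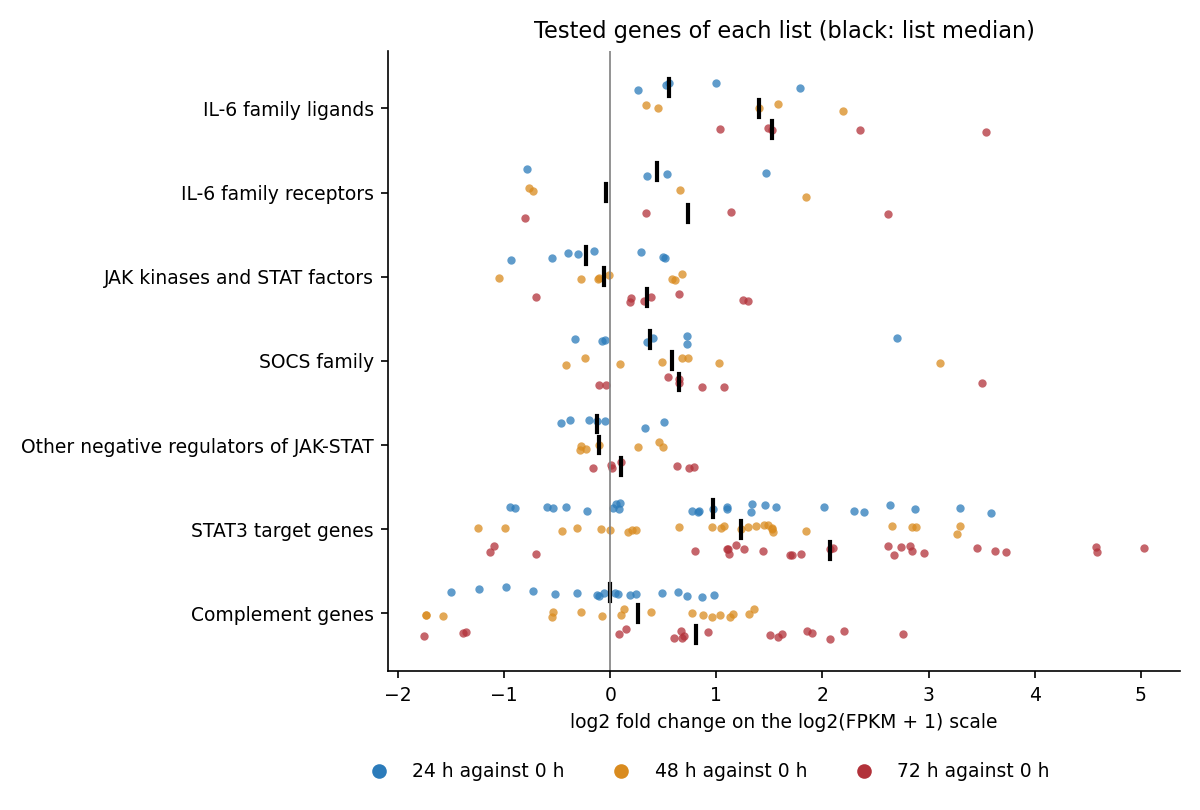
Log2 change from 0 h (horizontal axis, log2(FPKM + 1) scale) of each tested gene in 7 lists, at 24 h (blue), 48 h (orange) and 72 h (red), with black ticks at the list medians. The STAT3 target medians lie at 0.97, 1.23 and 2.07, whereas the medians of JAK and STAT genes lie at -0.23, -0.06 and 0.35.

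The STAT5 side was covered by a list of 14 genes of the growth hormone axis, of which 7 were tested. None were higher and 2 lower at 24 h, 2 higher and 3 lower at 48 h, and 4 higher and 2 lower at 72 h. Of the 7, 1 lay under 1 FPKM in both 0 h libraries and passed the filter only through cisplatin libraries. Prlr, the prolactin receptor, stood at 5.28 and 4.74 FPKM at 0 h, 5.64 and 5.91 after 24 h, 1.56 and 0.945 after 48 h, and 1.01 and 0.883 after 72 h. It was not called at 24 h and fell by 1.43 after 48 h and by 1.63 after 72 h. A further list held 11 other genes of negative regulators of JAK and STAT (phosphatases, PIAS proteins and the adaptor Sh2b3). Of these 7 were tested, with 1 higher and 2 lower at 24 h, 2 and 1 after 48 h, and 3 and 0 after 72 h. Set beside both lists, 25.8% of all tested rows were called higher and 40.0% lower at 24 h. The all-row shares were 28.5% and 42.1% after 48 h, and 37.6% and 32.4% after 72 h.

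Marker genes of several cell types also changed over the same times. Whether the shares of these cell types moved cannot be told from marker FPKM alone. Of 12 proximal tubule markers, 11 were called lower at 24 h and 12 after 48 h and at 72 h, and the summed FPKM of those with unmerged rows ran from 5061 to 5457 at 0 h, 2269 to 2650 after 24 h, 1482 to 1549 after 48 h and 576 to 592 after 72 h. Of 10 tested macrophage and monocyte markers, 4 were higher and 2 lower at 24 h and 10 higher at 72 h, with sums of 33.0 to 37.5 at 0 h, 34.5 to 35.9 after 24 h, 38.5 to 41.6 after 48 h and 128 to 132 after 72 h. The neutrophil sum went from 1.08 to 1.32 at 0 h to 27.3 to 29.2 after 24 h and 75.6 to 78.1 after 72 h. Its largest values were those of S100a8, at 13.0 and 13.8 FPKM after 24 h and 32.8 and 30.9 after 72 h. S100a9 came next, at 9.85 and 8.89 after 24 h and 19.5 and 17.7 after 72 h. Ly6g and Elane were listed at 0 in both 0 h libraries, and Ly6g did not pass 0.378 FPKM in any library. All 6 tested neutrophil markers lay under 1 FPKM in both 0 h libraries, so the filter fixed their direction; without it 6 of 10 were called higher at 24 h and 8 of 10 at 72 h. Fibroblast and pericyte markers summed to 63.6 to 67.3 at 0 h and 273 to 274 after 72 h, and endothelial markers to 74.2 to 77.5 and 156 to 159.

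Podocyte markers summed to 51.3 to 56.1 at 0 h and 80.3 to 81.5 after 72 h, collecting duct markers to 123 to 136 and 164 to 179, and markers of the thick ascending limb and distal tubule to 500.0 to 511.8 and 165.0 to 165.3. Of the 8 collecting duct markers, 2 were called higher and 4 lower at 72 h, with a median log2 change of -0.32. Their sum rose with Aqp2, which went from 37.25 and 29.18 FPKM at 0 h to 91.24 and 102.1 after 72 h. The T and B lymphocyte sum was 2.13 to 2.44 at 0 h and 1.68 to 1.73 after 72 h. The macrophage markers called higher at 24 h were Itgam, Cd14, Mrc1 and Fcgr1, the first 3 of them under 1 FPKM in both 0 h libraries, with Itgam going from 0.173 and 0.119 FPKM at 0 h to 1.52 and 1.80. Called lower at 24 h were Csf1r, from 8.86 and 9.90 FPKM at 0 h to 5.94 and 5.15, and Ly6c2, in a row that also spans other Ly6 genes. Their log2 changes were -0.67 and -0.25. The higher calls of Csf1r and Ly6c2 at 72 h, at 0.27 and 0.20, were each lost under several settings. Lyz2, which made up the largest share of the macrophage sum at 0 h, was not called at 24 h. The part of any of these cell types in the changes of the 9 genes was not tested.

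**Figure D5:**
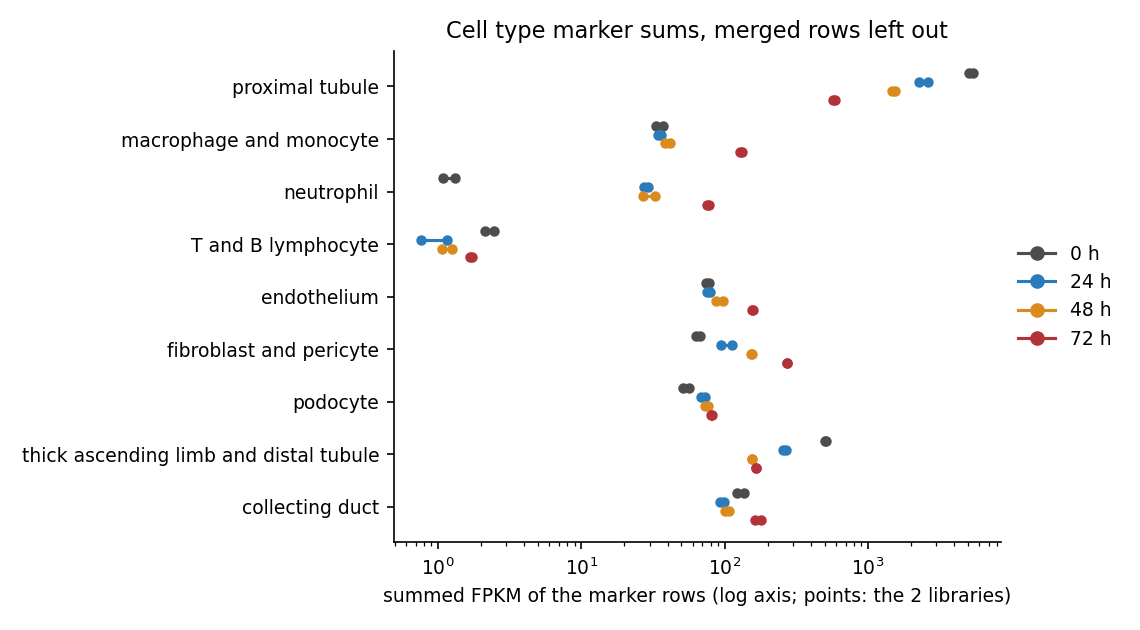
Summed FPKM of 9 cell type marker lists (horizontal axis, log scale, merged rows left out), 1 row per list, with the libraries of a time joined by a line and coloured by time. The proximal tubule sum goes from 5061 to 5457 at 0 h down to 576 to 592 after 72 h, the neutrophil sum from 1.08 to 1.32 up to 75.6 to 78.1, and the macrophage sum from 33.0 to 37.5 up to 128 to 132.

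Between successive times the calls fell on fewer genes. From 24 to 48 h, 4 of the 9 genes were called higher and none lower, against 11.2% higher and 17.2% lower over all tested rows. These were Socs3 at 0.41, Lif at 0.40, Osmr at 0.38 and C3 at 0.97. The calls of Lif and Osmr were fragile: that of Osmr was lost without any 1 of the 4 libraries compared, that of Lif without either 24 h library or 48 h library b, and that of Socs3 without 48 h library a. Leaving out any 1 of those 4 libraries left 2 genes called. Higher calls were 39.4% of all calls in this comparison, and 74.4% with libraries scaled to the same total.

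From 48 to 72 h, 5 genes were called higher and none lower, where 37.2% of all rows were higher and 11.3% lower. They were Osmr at 0.77, Stat3 at 0.69, Cish at 0.45, Socs3 at 0.39 and C3 at 2.67. With libraries scaled to the same median 3 were called, without Socs3 (0.18, adjusted p 0.122 in limma) and Cish, and higher calls were 46.3% of all calls in place of 76.7%. The call of Cish was also lost without any 1 of the 4 libraries compared. Lif, Lifr and Socs1 were not called between these times. Socs2 was not called at 0.39 (adjusted p 0.114 in limma), although its libraries did not overlap. It was called in a fit of these 2 times alone (adjusted p 0.0157 in limma) and without 0 h library a (0.0312) or b (0.0320).

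From 24 to 72 h, 7 genes were called higher and none lower, against 37.7% and 19.8% of all rows. C3 had the 7th largest rise of all tested rows, 3.64, followed within the set by Osmr at 1.15, Stat3 and Socs3 at 0.80 each, Socs2 at 0.72, Cish at 0.61 and Lif at 0.56. The call of Socs2 was lost without 24 h library b or 72 h library a, and that of Cish without 24 h library b or under quantile normalisation. Lif was at 0.37 with libraries scaled to the same median and at 0.30 under quantile normalisation. Higher calls were 65.6% of all calls, and 45.5% with libraries scaled to the same median. Socs1 was not called, at -0.07, and was called lower under quantile normalisation alone, at -0.34 (adjusted p 0.0371 in limma).

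The order of the levels changed with time. At 0 h Lifr was highest, followed by Stat3, then by C3, Osmr, Socs2 and Cish, whose libraries overlapped in that order, and last by Socs3, Socs1 and Lif. At 24 h Stat3 led, Lifr and Osmr overlapped behind it, and Socs3 had passed Socs2. At 48 h the order was Stat3, Osmr, Socs3 and Lifr, the last pair overlapping, and then C3, Socs2, Lif, Cish and Socs1. At 72 h C3 led, followed by Stat3, Osmr, Socs3, Lifr, Socs2, Cish, Lif and Socs1, and no neighbours in that order overlapped.

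The rows whose changes lay nearest to those of single members were looked up on the log2(FPKM + 1) scale. Likeness was measured as the root mean square difference of the log2 changes from the 0 h mean over the 6 cisplatin libraries. Nearest to Socs3 were Map3k6, Gprc5a and Krt18, at 0.248, 0.267 and 0.288. Nearest to Stat3 were Ndn, Sema6b and Psmd10, at 0.0874, 0.0952 and 0.102. Nearest to Osmr were Tmem43, in a row that reaches past its gene, Rprm and Tsc22d1, at 0.0851, 0.105 and 0.107. Nearest to Lifr were Tagln3, in a row that also spans Abhd10, Dync2li1 and Lrba, at 0.0983, 0.0987 and 0.101. Nearest to C3 were Calcb, Gc and Adam8, at 0.337, 0.477 and 0.484, so that no row came as near to C3 as those nearest to the other 4 genes did to theirs. The scale compresses rows near 0: Rprm, at 0.168 and 0.116 FPKM, and Calcb, at 0.0377 and 0.0448, started far below Osmr and C3, so their fold changes in FPKM were larger. These are descriptions of 6 libraries and say nothing of shared control.

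None of the 2163 circular RNAs in the second table lay in or overlapped any of the 9 genes.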

How the data were processed

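Linear RNA of 8 libraries was deposited as FPKM (per the file headers, as computed by the authors). Per the submitters' processing notes Bowtie 0.12.2, TopHat2, Cufflinks and mm10 were used, without their roles. The circular RNA table holds whole-number counts deposited by the authors; how circles were called was not given in the sources used here, and its other 8 columns were not used. Columns carry the letters a and b, which the labels do not, so columns were assigned to times only.

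Rows were named through their gene identifiers (19742 of 21874) and set against RefSeq spans with a tolerance of 2000 bases; a row that also spans another protein-coding gene is called merged. limma 3.58.1 in R 4.3.3 was run on log2(FPKM + 1), with intensity trend and robust empirical Bayes, in 1 fit of all 4 times, on rows that reached 1 FPKM in 2 or more libraries. P-values are 2-sided with Benjamini-Hochberg adjustment over all 10757 rows of a contrast. FPKM values show no whole-read steps, so no count test was possible for them. The fit was tested on simulated data.

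Members and lists were chosen with earlier results of these data known. Named were the 9 members, up to 5 called genes per list and contrast by smallest p, the 3 rows nearest to each of 5 members, and rows sharing a member's span. Socs6, Bcl6, Vegfa, Birc5, Ly6c2 and the row named Pde4d were named after their values were seen. The 17 lists hold 212 genes, of which 189 had a row and 151 were tested.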

Additional observations from a re-analysis of the deposited data

How the results depend on the processing

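Of 900 values of single members under alternative settings, 840 kept their direction and their side of the threshold, 27 lost a call, 11 gained one and 22 changed sign, all of them for changes that were not called. With every library at the same median, 3 members were called from 48 to 72 h in place of 5. Leaving out 1 library at a time gave 6 to 7 members called at 24 h against 0 h, 7 to 8 at 48 h, 8 to 9 at 72 h, 2 to 4 from 24 to 48 h, 4 to 6 from 48 to 72 h and 5 to 7 from 24 to 72 h. The number of all rows called from 24 to 48 h, 3046, became 1830 to 2865 in that way, with 1830 and 1839 without 48 h library a and b. The changes of sign, on the log2 scale, came with the following settings. At the same median, Cish at 24 h was 0.047 and Lif from 48 to 72 h -0.049. At the same total, Cish at 24 h was 0.098, C3 at 24 h 0.031 and Lifr from 24 to 72 h 0.036. Under quantile normalisation, Socs1 from 24 to 48 h was -0.036 and Lif from 48 to 72 h -0.094. Leaving out 1 library at a time, Cish ranged from -0.32 to 0.17 at 24 h and from -0.16 to 0.34 at 48 h, and C3 from -0.35 to 0.062 at 24 h. From 24 to 48 h, Socs1 ranged from -0.057 to 0.083, Stat3 from -0.060 to 0.28 and Lifr from -0.11 to 0.15. From 48 to 72 h, Socs1 ranged from -0.20 to 0.031 and Lifr from -0.16 to 0.099. From 24 to 72 h, Socs1 ranged from -0.19 to 0.045 and Lifr from -0.12 to 0.0999. The cause of these changes was not tested.

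What the column letters stand for is not given, so no pairing was assumed. Deviations of same-letter libraries from their group means correlated from -0.24 to 0.393, which cannot settle whether the letters pair libraries. With the letter as a replicate block the counts of members called were 6, 8, 9, 4, 5 and 7 in the 6 comparisons, as without the block. A minimum of 5 FPKM left Socs1, Lif and Cish untested. The alternatives planned for circular RNA were not run, since no circular RNA lay in a member. Depth is unknown for FPKM, so no counting interval can be given for genes near 0, such as Lif at 0 h.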
